A study of Mus musculus with 4 samples.

Results

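Sox17, Gata4, Gata6, Foxa2 and Hhex encode transcription factors of the endoderm, and their loci were examined for the histone marks H3K4me3 and H3K27me3 in mouse rosette stem cells. Each gene was represented by a fixed window of mouse build mm9. The windows were chromosome 1 from 4.47 to 4.5 Mb for Sox17, chromosome 14 from 63.81 to 63.88 Mb for Gata4, chromosome 18 from 11.04 to 11.09 Mb for Gata6, chromosome 2 from 147.85 to 147.89 Mb for Foxa2 and chromosome 19 from 37.49 to 37.53 Mb for Hhex. Every called region that overlapped a window was taken, which gave 34 of the 76945 regions in the 4 deposited lists. Of these, 12 were H3K27me3 regions and 22 were H3K4me3 regions. The windows were placed without use of the region scores, and a region that reached past a window was kept at its full width.

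The cells came from the embryonic stem cell lines CGR8 (strain 129/Ola) and R1 (strain 129), each kept for 8 days on gelatin and serum-coated plates in N2B27 with LIF (leukaemia inhibitory factor), IWP2 at 2 µM and PD325901 at 1 µM. IWP2 blocks the secretion of WNT proteins and PD325901 inhibits MEK, and all 4 libraries share both agents. Chromatin immunoprecipitation with sequencing gave 1 library of each mark in each line, so a difference between CGR8 and R1 has no replicate within a line and was not tested. The labels give no untreated, naive or primed sample, so the values describe the rosette state in 2 lines and no change of state.

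In the early embryo, Gata6 and Gata4 act in the primitive endoderm, the extraembryonic layer that forms beside the pluripotent epiblast. Sox17 and Foxa2 mark the definitive endoderm that arises later at gastrulation, and Hhex marks its anterior part. Promoters of such developmental regulators in pluripotent cells often carry H3K4me3, the mark of active or poised promoters, together with H3K27me3, the mark set by Polycomb repressive complex 2, a state known as bivalent. In mammals, regions bound by this complex are typically rich in CpG dinucleotides.

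Promoter sequences of RefSeq (build GRCm38.p6) were matched by gene symbol for 2 of the 5 genes, Hhex and Foxa2, and both genes are shown. By score, these genes stood at opposite ends of the rank order of both marks described further on. By H3K27me3 score per kb they were neighbours in that order, Foxa2 at 4.34% in CGR8 and 5.41% in R1 and Hhex last at 33.0% and 28.2%. A link between CpG content and either mark was not tested. Each sequence is the 250 bases before an annotated start, read 5′ to 3′ on the gene's strand, with every CpG in capitals. The Hhex sequence lies at chr19:37434591-37434840 (plus strand) and the Foxa2 sequence, before the outermost of 3 annotated starts, at chr2:148046970-148047219 (minus strand).
Hhex: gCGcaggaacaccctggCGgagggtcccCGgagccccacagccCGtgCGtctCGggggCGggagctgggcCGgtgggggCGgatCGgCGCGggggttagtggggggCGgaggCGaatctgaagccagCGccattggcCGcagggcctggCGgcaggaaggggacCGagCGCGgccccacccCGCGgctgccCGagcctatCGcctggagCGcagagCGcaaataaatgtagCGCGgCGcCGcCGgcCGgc
Foxa2: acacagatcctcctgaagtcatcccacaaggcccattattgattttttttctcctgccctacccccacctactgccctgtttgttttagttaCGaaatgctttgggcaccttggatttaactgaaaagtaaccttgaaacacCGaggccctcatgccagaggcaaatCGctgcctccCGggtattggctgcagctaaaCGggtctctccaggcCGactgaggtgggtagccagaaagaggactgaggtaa
The Hhex sequence held 32 CpGs, more than 95.4% of 32851 such sequences, at a GC content of 76.0%. The Foxa2 sequence shown held 6, the median of all of them and the fewest before any of the 3 Foxa2 starts. The other Foxa2 starts had 20 and 13 CpGs before them, more than 82.1% and 68.5% of all sequences, and the 3 starts spanned 1505 bp. The called regions are on mm9 and these sequences on another build, between which nothing was converted, so the place of a called region relative to a start is not given here.

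All 5 genes carried both marks in both lines, with at least 1 stretch where an H3K4me3 and an H3K27me3 region covered the same bases. Of windows of equal size tiled over the genome, 6.06% met this at 30 kb (the size used for Sox17), 7.77% at 40 kb (Foxa2 and Hhex), 9.45% at 50 kb (Gata6) and 12.5% at 70 kb (Gata4). These windows include gene-free sequence, so the shares describe the genome and not other genes of this kind. In CGR8, 10 of the 11 H3K4me3 regions overlapped H3K27me3 by at least 1 bp, against 28.2% of all H3K4me3 regions of that list. In R1 it was also 10 of 11, against 29.1%. For H3K27me3 regions, 6 of 7 overlapped H3K4me3 in CGR8 (41.3% of the list) and 5 of 5 in R1 (48.8%). All 5 windows were thus bivalent by position, which says nothing of single cells or alleles.

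**Figure D1:**
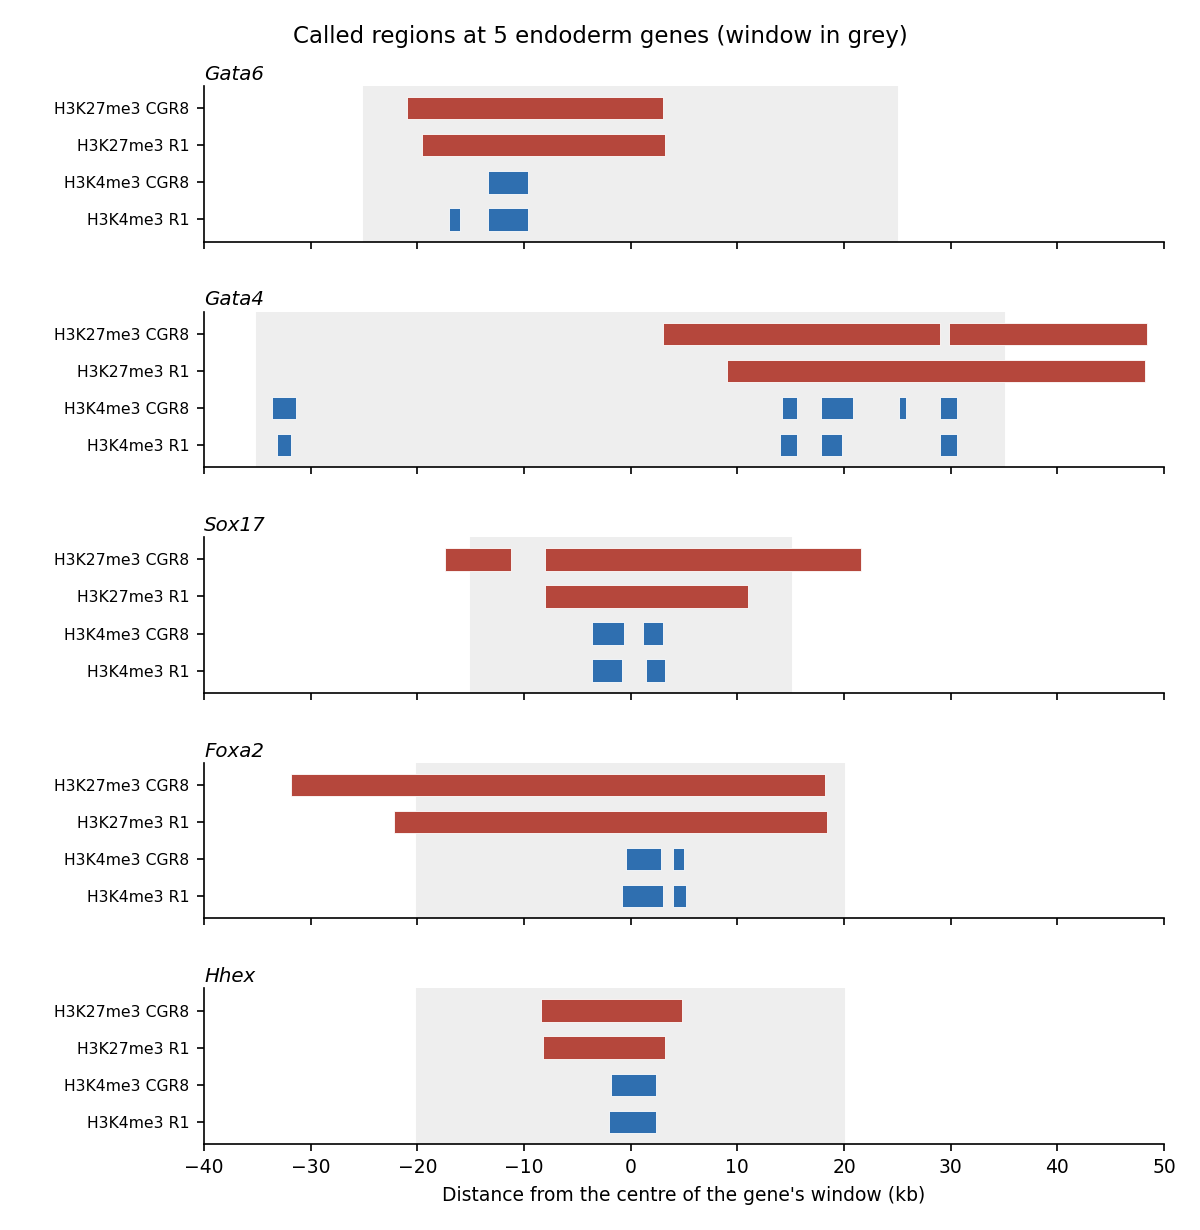
Map of the called regions at the 5 genes. Bars are whole regions (H3K27me3 red, H3K4me3 blue) by distance in kb from the centre of each gene's window (grey), with 1 row per library. H3K4me3 regions sit inside wider H3K27me3 regions at every gene, and 1 H3K4me3 region at the left of the Gata4 window lies apart from H3K27me3 in both lines.

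H3K4me3 lay as islands that were short beside the H3K27me3 regions holding them. Of the 10 overlapping H3K4me3 regions in CGR8, 9 were covered over their whole width by H3K27me3, as were all 10 in R1, against 79.8% and 78.5% of all H3K4me3 regions that met H3K27me3. The H3K27me3 regions were 6.2 to 50 kb wide in CGR8 and 11.4 to 40.6 kb in R1, against list medians of 7.6 and 6.4 kb. H3K4me3 regions were 0.6 to 4.2 kb wide in CGR8 and 1.0 to 4.4 kb in R1, against a list median of 2.0 kb in each. Within their own list the highest-scoring ones were mostly wide. They stood at 8.61% to 20.8% by width in CGR8 and at 6.64% to 22.9% in R1, except Gata4 in R1 at 58.8%. H3K27me3 regions are joined over gaps of up to 600 bp in these lists and H3K4me3 regions over gaps of up to 200 bp, so the widths of the marks are not on the same footing.

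The genes separated into 4 with H3K27me3 near the top of the list and 1, Hhex, without. Scores are those the authors deposited, without a unit, and each was ranked within its own list, so that a small percentage means a place near the top. The highest-scoring H3K27me3 regions of Gata6, Gata4, Sox17 and Foxa2 stood between 0.398% and 1.14% in CGR8 and between 0.695% and 1.37% in R1. That of Hhex stood at 18.7% and 17.1%. For H3K4me3 the place of Hhex was reversed: its region stood at 9.81% and 8.35%, ahead of Sox17 at 27.2% and 25.0%, while Gata4, Gata6 and Foxa2 stood at 43.9% to 58.4% in CGR8 and 44.8% to 49.8% in R1. These are ranks of single libraries, and Gata4 and Gata6 changed places between lines for both marks. For H3K27me3 the CGR8 call of Gata4 is divided, and only its higher-scoring region was ranked. Its regions had a summed score of 2903.1 in CGR8, against 2335.7 at Gata6. In R1 Gata4 had 2472.0 and Gata6 2393.4, so Gata4 was ahead in both lines by summed score. The highest-scoring H3K4me3 region of Gata4 was a different one in each line.

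**Figure D2:**
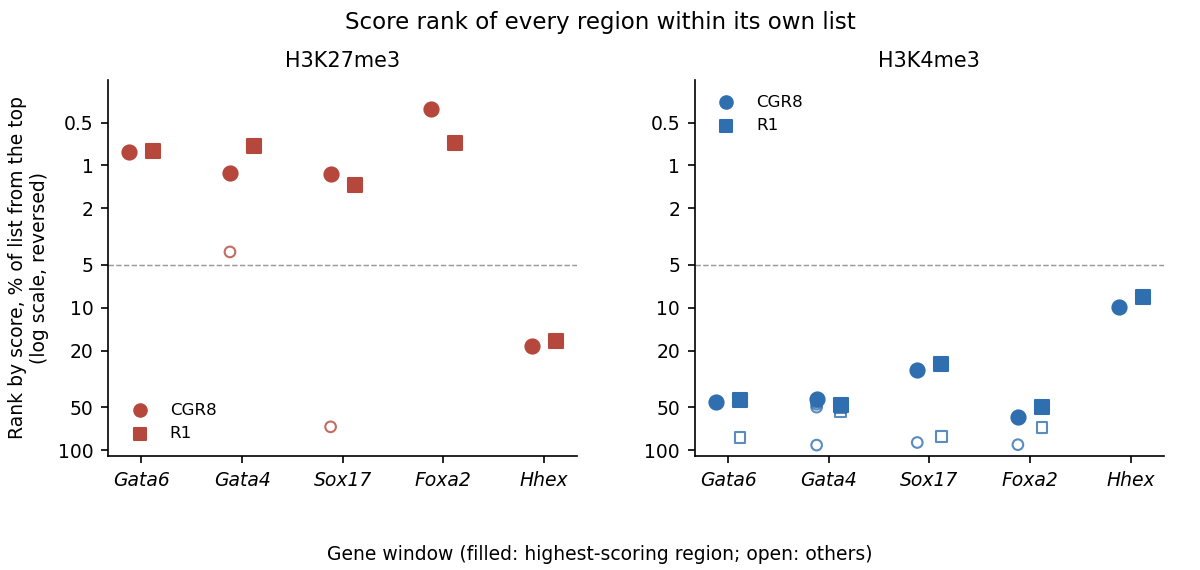
Score rank of all 34 regions within their own lists, as percent of the list from the top on a reversed log axis, by gene window. Circles are CGR8, squares are R1, filled symbols the highest-scoring region of a window, open symbols the others, and the dashed line marks 5%. For H3K27me3 the filled symbols of 4 genes lie above 5% and those of Hhex at 18.7% and 17.1%, and for H3K4me3 Hhex lies highest.

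H3K27me3 regions of such high score nearly always hold H3K4me3. In the best 5% of the H3K27me3 list by score, 95.3% did so in CGR8 and 97.3% in R1, and the presence of H3K4me3 at Gata6, Gata4, Sox17 and Foxa2 is near this background. The median region of that class that held H3K4me3 had 2 H3K4me3 regions inside, covering 15.1% of it in CGR8 and 18% in R1, with the best of them at 39.7% and 39.1% of the H3K4me3 list. The middle 50% of these best ranks ran from 29.7% to 50.9% in CGR8 and from 28.5% to 49.2% in R1. Gata6 and Gata4 fell inside this range in both lines, Sox17 ranked above it and Foxa2 below it. Hhex was the less common case seen from the other mark: of the best 10% of H3K4me3 regions, 9.75% in CGR8 and 12.1% in R1 overlapped H3K27me3.

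**Figure D3:**
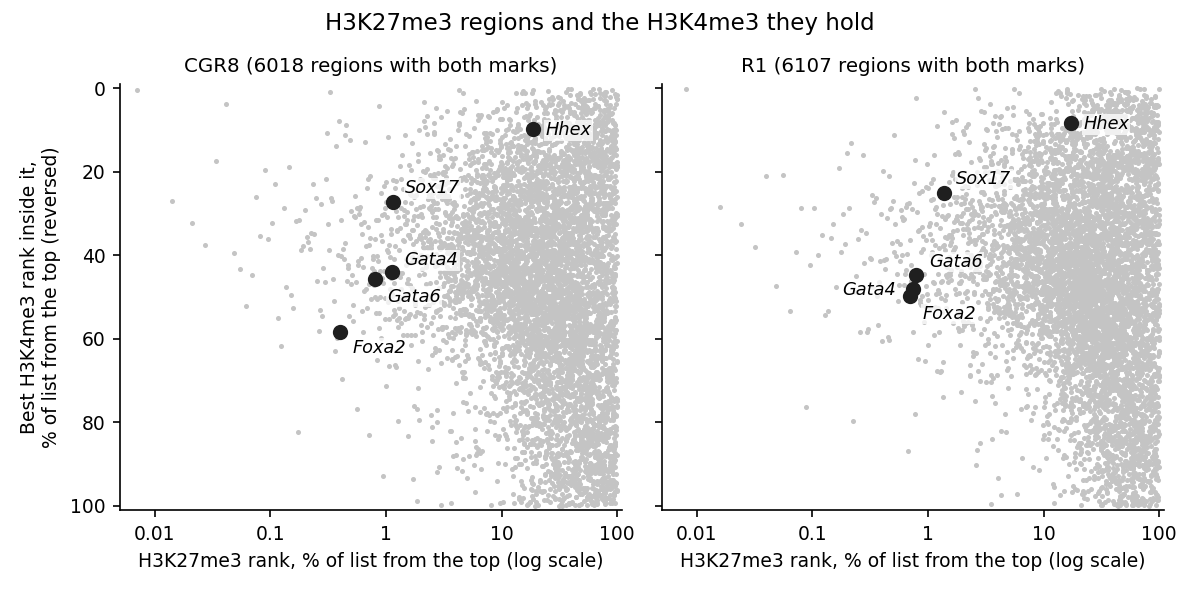
Rank of each H3K27me3 region with H3K4me3 (x axis, percent of the list from the top, log scale) against the rank of the best H3K4me3 region it holds (y axis, percent from the top, reversed), with CGR8 left and R1 right. Grey points are all 6018 and 6107 such regions and black points the highest-scoring H3K27me3 region of each gene. Foxa2, Gata6 and Gata4 lie near the centre of each panel, Sox17 above them, and Hhex at the upper right.

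Gata6, a GATA zinc finger factor needed for primitive endoderm, had the highest H3K27me3 score per kb of the 5 genes. It ran from 11044001 to 11068000 on chromosome 18 in CGR8 (24 kb, score 2335.7) and from 11045401 to 11068200 in R1 (22.8 kb, score 2393.4), a mean of 23.4 ± 0.849 kb (SD, n = 2 lines). Its score per kb was 97.3 in CGR8 and 105 in R1, which placed it at 0.741% and 0.679% of the lists by that measure. The main H3K4me3 region had the same bounds in both lines, from 11051601 to 11055400 (3.8 kb), with scores of 447 and 509. It began 7.6 kb after the left edge of H3K27me3 in CGR8 and 6.2 kb after it in R1, and ended 12.6 and 12.8 kb before the right edge. The stretch with both marks in both lines was 3800 bp long, which ranked 106 of 6308 such stretches in the genome. R1 alone had a further H3K4me3 region from 11048001 to 11049000 (score 66.5), which stood at 81.3% of its list, where the lowest score was 37.3. The gene Gata6os overlaps Gata6 in the RefSeq table, so these regions cannot be given to Gata6 alone.

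Gata4, the related factor of primitive endoderm and later of heart and gut, had the most divided pattern. In CGR8, H3K27me3 was called as 1 region from 63848001 to 63874000 on chromosome 14 (26 kb, score 1974.1) and another from 63874801 to 63893400 (18.6 kb, score 929). In R1 it was a single region from 63854001 to 63893200 (39.2 kb, score 2472). The CGR8 regions were 800 bp apart, the smallest gap present in that list, and together they spanned 45.4 kb. The outer right edges thus differed by 200 bp between lines and the left edges by 6 kb.

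H3K4me3 at Gata4 was called in 5 places in CGR8 and 4 in R1. From 63859201 to 63860600 in CGR8 (score 435) and from 63859001 to 63860600 in R1 (score 352), the region was narrow and near the middle of its list. The next ran from 63862801 to 63865800 in CGR8 (3 kb, score 500) and to 63864800 in R1 (2 kb, score 371). A region from 63874001 to 63875600 had the same bounds in both lines, with scores of 335 and 414. In CGR8 this last region covered the gap between the H3K27me3 regions and overlapped only the second of them, with 50% of its width covered. In R1 it lay wholly inside H3K27me3. Bases with both marks in both lines came to 4200 bp in 3 stretches. A region of 600 bp from 63870201 was called in CGR8 alone (score 47.3, at 92.2% of a list whose lowest score was 38.5).

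The remaining Gata4 region stood apart from H3K27me3. It ran from 63811401 to 63813600 in CGR8 (score 392) and from 63811801 to 63813200 in R1 (score 278), 34.4 and 40.8 kb from the nearest H3K27me3 region. In the RefSeq table the nearest protein-coding gene to Gata4 is Neil2, a DNA glycosylase gene, 4.76 kb away, and this region was not assigned to either gene here.

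Sox17, a SOX factor of definitive and extraembryonic endoderm, had H3K27me3 from 4477001 to 4506600 on chromosome 1 in CGR8 (29.6 kb, score 1971.6) and from 4477001 to 4496000 in R1 (19 kb, score 1763.7). The left edge was the same base in both lines, and the right edge lay 10.6 kb further out in CGR8. The score per kb was 66.6 in CGR8 and 92.8 in R1, so the longer call was the less dense one. CGR8 alone had another H3K27me3 region from 4467601 to 4473800 (6.2 kb, score 98.8) with no H3K4me3, at 68.6% of its list, where the lowest score was 70.6. Sox17 had the lowest agreement of H3K27me3 cover within its window. Of bases covered in either line, 70.9% were covered in both, against 78.8% at Gata4, 86.4% at Hhex, 93.4% at Gata6 and 99.5% at Foxa2. Bases outside a window were not counted, and at Foxa2 both left edges, which differed by 9600 bp, lie outside it. Over its full width, 80.8% of the CGR8 Foxa2 region was covered in R1. That share was 64.2% for the main Sox17 region, 86.4% for Hhex and 94.2% for Gata6.

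Sox17 carried a pair of H3K4me3 regions of very unequal score. The stronger ran from 4481401 to 4484400 in CGR8 (score 1130.4) and to 4484200 in R1 (score 1258.4). The weaker ran from 4486201 to 4488000 in CGR8 (score 52.9) and from 4486401 to 4488200 in R1 (score 69.1), 1.8 and 2.2 kb after the stronger. The score ratio within the pair was 21.4 in CGR8 and 18.2 in R1. Both regions were called in both lines, with widths of 1.8 kb for the weaker in each, so the pair repeated although the weaker stood at 88.4% and 80.3% of its list. Both lay inside H3K27me3, and the stretches with both marks in both lines were 2800 and 1600 bp long.

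Foxa2, a forkhead pioneer factor of endoderm, node and floor plate, had the widest and highest-scoring H3K27me3 region of the 5 genes in both lines. It ran from 147838201 to 147888200 on chromosome 2 in CGR8 (50 kb, score 3098.8) and from 147847801 to 147888400 in R1 (40.6 kb, score 2519.6), a mean of 45.3 ± 6.65 kb (SD, n = 2 lines). By width it ranked 35 among 14575 regions (CGR8) and 46 among 12511 (R1). By score per kb, 62.0 and 62.1, it stood at 4.34% and 5.41%, so that its place at the very top by score went with its width. The right edges differed by 200 bp and the left edges by 9.6 kb.

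The H3K4me3 regions of Foxa2 covered little of this region, 8.4% in CGR8 and 12.3% in R1, below the middle 50% of the best H3K27me3 class (10.0% to 22.1% in CGR8 and 12.9% to 26.7% in R1). The main region ran from 147869601 to 147872800 in CGR8 (3.2 kb, score 194) and from 147869201 to 147873000 in R1 (3.8 kb, score 367). The second began at 147874001 in both lines and was 1.0 kb wide in CGR8 (score 48.3) and 1.2 kb in R1 (score 111). The main region was wide for its score, at 17.8% and 10.2% of the lists by width but 58.4% and 49.8% by score. It is longer than the span of the 3 RefSeq starts given above, but whether it covers them was not determined. The stretches with both marks in both lines were 3200 and 1000 bp long.

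Hhex, a homeobox factor of anterior endoderm that also acts in blood and vessel precursors, had the shortest main H3K27me3 region and the strongest H3K4me3. H3K27me3 ran from 37501601 to 37514800 on chromosome 19 in CGR8 (13.2 kb, score 337) and from 37501801 to 37513200 in R1 (11.4 kb, score 354), a mean of 12.3 ± 1.27 kb (SD, n = 2 lines). A single H3K4me3 region ran from 37508201 to 37512400 in CGR8 (4.2 kb, score 2333.6) and from 37508001 to 37512400 in R1 (4.4 kb, score 2434.1). It took up 31.8% of the H3K27me3 region in CGR8 and 38.6% in R1, more than at the other 4 genes, and lay towards the right, 2.4 kb from that edge in CGR8 and 0.8 kb in R1. Of all H3K4me3 regions as wide as 4 kb or more, 13.3% overlapped H3K27me3 in CGR8 and 14.8% in R1. The stretch with both marks in both lines, 4200 bp, ranked 68 of 6308 in the genome and was the longest of the 5 genes. H3K27me3 at Hhex was the weakest of the 5 per kb, at 25.5 and 31.0, above the list medians of 19.6 and 20.6.

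Most regions recurred in the other line. For H3K4me3, 10 of 11 regions of CGR8 were called in R1 (89.8% of that list) and 10 of 11 of R1 were called in CGR8 (92.6%). For H3K27me3 it was 6 of 7 (67.1% of the CGR8 list) and 5 of 5 (81.1% of the R1 list). The 3 regions found in a single line were the low-scoring ones named above at Gata6, Gata4 and Sox17, at 68.6% to 92.2% of their lists, and a region not called at this depth may still carry the mark. H3K4me3 recurrence was near the share of the whole list.

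The edges of H3K27me3 differed unequally between the lines. In all 4 genes with a single paired H3K27me3 region (Gata6, Sox17, Foxa2 and Hhex), 1 edge agreed between lines within 200 bp, against 48% of 8167 paired regions in the genome, and the other edge did not, against 39.1%. The other edge shifted by 1.4 kb at Gata6, 1.6 kb at Hhex, 9.6 kb at Foxa2 and 10.6 kb at Sox17. The wider call was that of CGR8 each time, but the share of all pairs with the wider call in CGR8 was not counted. Over both edges together the shift was 1600 bp at Gata6 and 1800 bp at Hhex, below the median of 2200 bp over all pairs, and 9800 bp at Foxa2 and 10600 bp at Sox17, above it. The outer bounds at Gata4 differed by 200 bp and 6 kb, as given above. The median H3K27me3 region of the whole list was also wider in CGR8, at 7.6 kb against 6.4 kb in R1.

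Scores of paired regions were set against all pairs of the same mark, since the lists differ in scale. For H3K27me3 the log2 score ratio of R1 over CGR8 was 0.04 at Gata6, -0.16 at Sox17, -0.30 at Foxa2 and 0.07 at Hhex, where all pairs had a median of -0.25 and a middle 90% from -1.22 to 0.51. For H3K4me3 the 10 paired regions had ratios from -0.49 to 1.21, 7 above 0 and 3 below it, where all 21972 pairs had a median of -0.03 and a middle 90% from -0.76 to 0.61. Foxa2 alone fell outside that range, with both of its H3K4me3 regions higher in R1, at 0.92 and 1.21. Of all pairs, 1.69% and 0.487% had a higher ratio. The second Foxa2 region, with the ratio of 1.21, scored 48.3 in CGR8, near the lowest score of that list, 38.5. Pairs of like score were not compared apart. The 121 other H3K4me3 pairs within 5 Mb of the Foxa2 window had a median ratio of -0.02, a middle 90% from -0.76 to 0.68 and a highest value of 1.33, above both Foxa2 values. The H3K27me3 ratio at Foxa2 was -0.30. The rank of the main region moved from 58.4% in CGR8 to 49.8% in R1 and that of the second from 91.6% to 69.1%. With 1 library of each line, a difference between lines and one between libraries cannot be told apart.

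**Figure D4:**
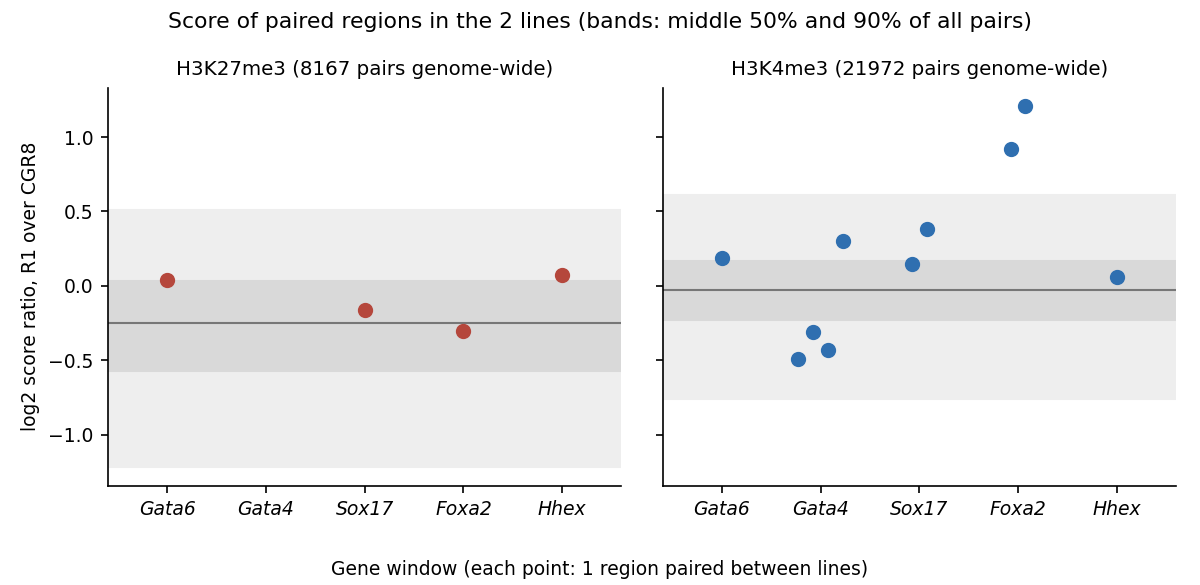
Log2 score ratio of R1 over CGR8 (y axis) for each region paired between lines, by gene window, with H3K27me3 left and H3K4me3 right. The line is the median of all pairs in the genome and the bands hold the middle 50% and 90% of them. Gata4 has no H3K27me3 point because its CGR8 call is divided, and the pair of Foxa2 H3K4me3 points at 0.92 and 1.21 lies above the bands.

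At Gata4 the paired H3K4me3 regions did not move together. The region apart from H3K27me3 had a ratio of -0.49, the next ones -0.31 and -0.43, and the one at 63874001 had 0.30. All 4 lay within the middle 90% of all pairs. At Sox17 the stronger and the weaker region had 0.15 and 0.38, at Gata6 the main region had 0.19 and at Hhex the single region had 0.06, all within that range as well.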

How the data were processed

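H3K4me3 and H3K27me3 were measured by ChIP-seq in 1 library of each mark from each of 2 lines, grouped by the labels. The authors deposited a list of regions for each library, with chromosome, start, end and a score that has no unit or formula. Bowtie2 2.0.2, SICER 1.1, bedtools 2.20.1 and the build mm9 are named in the submitters' processing notes. Not given in the sources used here are their order and settings, any control library and the read depth. The labels' protocols and characteristics name different suppliers for the H3K27me3 antibody. Bounds lie on a grid of 200 bp. The lowest deposited score was 70.6 for H3K27me3 and 38.5 for H3K4me3 in CGR8, and 59.4 and 37.3 in R1.

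Starts were counted from 1. Regions overlapping by at least 1 bp were called overlapping, and a region was paired where it and its counterpart in the other line each met only one another. Ranks run within a list from the highest score. The named genes are the 5 given and every region in their windows, and other endoderm genes were not analysed here because no mm9 annotation was used to locate them. Genes and lists were chosen with earlier results of these data known. No test was made, since each line has 1 library per mark. The overlap code was checked on simulated lists. Alternatives changed the overlap, the score limit, the window size, the merging of regions (under 1000 bp apart), the ranking and the lines used. Computations used Python 3.11.15, numpy 2.4.6, pandas 2.3.3 and matplotlib 3.10.9.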

Additional observations from a re-analysis of the deposited data

How the results depend on the processing

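All 5 genes kept both marks in both lines with 50% of the H3K4me3 region covered, with windows widened or narrowed by 10 kb, with regions under 1000 bp apart merged and in either line alone. With only the higher-scoring 50% of each list, 4 genes did, because the Foxa2 H3K4me3 regions of CGR8 fall below that limit. The same limit lowered the H3K4me3 regions with H3K27me3 from 10 to 6 per line and the total length with both marks in both lines from 20800 to 13600 bp. That length was 22800 to 24000 bp when either line was left out, since bases then need to be covered in 1 line only. The H3K27me3 cover summed over the 5 windows was 126 kb per line, 146 kb in widened and 79.4 kb in narrowed windows, which cut through regions. For the place of the highest-scoring regions, the median over the 5 genes was taken in each line and averaged over the 2 lines. This mean was 0.962% by score, 4.25% by score per kb and 2.43% by width for H3K27me3. For H3K4me3 it was 44.4%, 48.0% and 14.0%. No paired test with the line as a block was made, since each line has 1 library per mark. Regions were paired between lines only to describe them. The number of libraries limits precision: depth is unknown from the lists, and a region absent from a list was not called, which does not show absence of the mark.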
